A study of Homo sapiens with 4 samples.

Results

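In the human liver cancer cell line HepG2, 87 circular RNAs (circRNAs) had at least 6 reads in each of 2 normal libraries and were listed at 0 in each of 2 libraries from cells kept glucose-free for 24 h. They were chosen by exactly these values from 7516 circRNAs with an identifier of circBase, a public circRNA database, out of 11666 circRNAs in the table. Over the whole table, 126 circRNAs (1.08%) met the same condition. Of the 11666, 10989 had reads in at least 1 library, and the remainder were listed at 0 in all 4. A further 9 circBase circRNAs were left out by identifier, and 0 of those 9 had the pattern. All 4 libraries came from wild-type HepG2 cells, labelled as liver, and differed by label only in treatment, glucose-free for 24 h or normal. Whether the replicates of a group were separate cultures is not stated in the labels. The series title concerns an energy stress-induced circRNA of EPB41 and lipogenesis. No row was matched to that circRNA, to a host gene or to a position, because neither the table nor the reference tables used here pair these identifiers with genes, and liver markers could not be looked up for the same reason. No sequence is shown, also for that reason.

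A circRNA forms when a downstream splice donor is joined to an upstream acceptor, and only reads across that back-splice junction tell it from the linear transcript of the same gene. Without free ends, circRNAs resist exonucleases, are often long-lived, and in some cases bind microRNAs or proteins. In liver cells, loss of glucose is known to activate the energy sensor AMPK, which restrains the synthesis of fatty acids and cholesterol. RNase R, an exonuclease, was used to digest linear RNA before sequencing, per the labels' protocols. Levels are scaled to the circRNA reads of each library, so each is relative to the other circRNAs of that library.

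Depth differed between the groups. Glucose-free replicates 1 and 2 held 102420 and 58776 circRNA reads, against 133083 and 166071 in normal replicates 1 and 2. The value 1 occurs in none of the libraries, where 2 is the lowest read count above 0, so a listed 0 may cover single reads, and no limit or fold change is drawn from it. Glucose-free replicate 2 and normal replicate 1, libraries of different groups, were closer to each other than either was to its own replicate. Among 1644 circRNAs that were read in every library and averaged 100 CPM or more (counts scaled to 1000000 circRNA reads per library), their chi-square was 0.905 times its degrees of freedom, against 2.27 for the glucose-free pair and 2.45 for the normal pair. Glucose-free replicate 1 and normal replicate 2 were furthest apart, at 5.76. Both replicates 1 were at 3.75 and both replicates 2 at 2.79. Where libraries differ, this ratio also grows with depth. It was not corrected for depth, so the glucose-free and normal pairs, at 2.27 and 2.45, are not ranked.

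The 87 circRNAs were mostly of low abundance, with a few exceptions. Their reads ranged from 6 to 146 in normal replicate 1, with a median of 7, and from 6 to 207 in normal replicate 2, with a median of 10. Together they took 0.855% and 0.923% of the reads in normal replicates 1 and 2, or 0.889% ± 0.0481 (SD, n = 2). The 10 most abundant supplied 45.3% ± 1.32 of these reads and the most abundant alone 13.2% ± 0.476 (SD, n = 2 normal libraries each). Summed over both normal libraries, 51 of the 87 had 12 to 19 reads, 26 had 20 to 49, and 10 had 50 or more. Their median level in normal cells, 61.7 CPM as the mean of both libraries, lay below the 107 CPM of the other 2932 circBase circRNAs with at least 6 reads in both normal libraries.

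**Figure D1:**
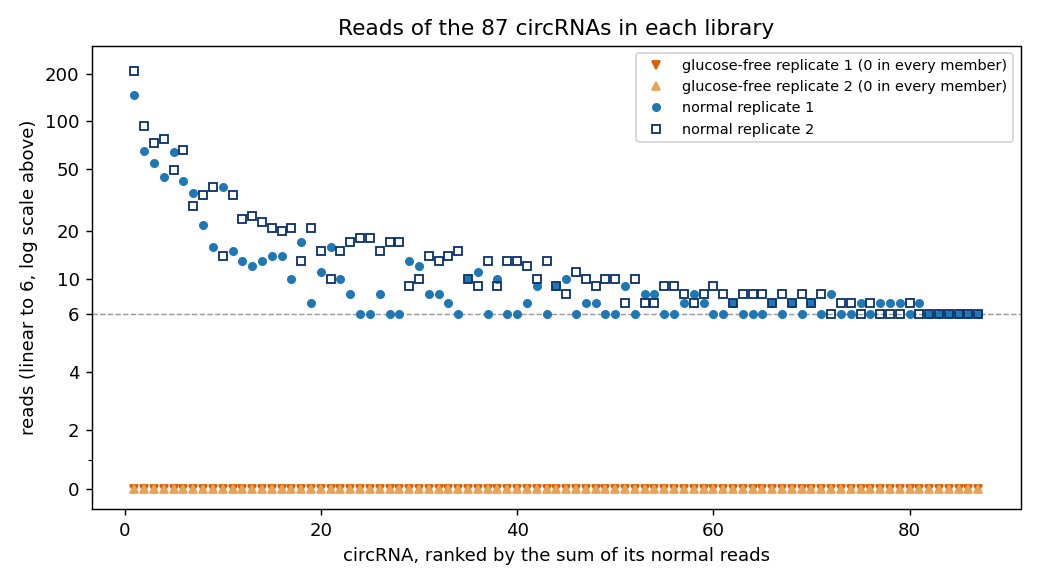
Reads (vertical axis, linear to 6 and logarithmic above) of each of the 87 circRNAs (horizontal axis, ranked by the sum of normal reads) in the 4 libraries. Triangles at 0 are the glucose-free libraries, circles and squares the normal replicates 1 and 2, and the dashed line marks the 6 reads that the choice required. Most points of the normal libraries lie between 6 and 20 reads.

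The most abundant of the 87, hsa_circ_0002484, had 0 and 0 reads in the glucose-free libraries, against 146 and 207 in the normal ones, which is 1172 ± 106 CPM in normal cells (SD, n = 2). At the normal rate glucose-free replicates 1 and 2 would have held 121 and 69.4 reads of it. Its level stood apart from that of the next, at 524 CPM.

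A group of 5 circRNAs followed, each listed at 0 in both glucose-free libraries. For hsa_circ_0001064 the normal replicates 1 and 2 had 65 and 93 reads, or 524 ± 50.6 CPM (SD, n = 2). The normal libraries had 54 and 73 reads of hsa_circ_0001543, or 423 ± 23.9 CPM (SD, n = 2). Both were steady between the normal libraries, and their normal values did not overlap with each other.

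The other members of that group varied more between the normal libraries. For hsa_circ_0001095 there were 0 reads in either glucose-free library, against 44 and 77 in normal replicates 1 and 2 (397 ± 94.1 CPM; SD, n = 2). For hsa_circ_0020816 there were again 0 reads in either glucose-free library, against 64 and 49 in the normal ones (388 ± 131 CPM; SD, n = 2). The sixth in order, hsa_circ_0008777, had 0 reads in either glucose-free library, against 42 and 66 reads in the normal ones (357 ± 57.9 CPM; SD, n = 2). From the third to the sixth in this order, the normal CPM values of neighbours overlapped.

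The next 4 in order had 64 to 52 normal reads in all. Listed at 0 in both glucose-free libraries, hsa_circ_0007672 had 35 and 29 reads in normal cells, and hsa_circ_0005445 had 22 and 34. Likewise at 0 without glucose, hsa_circ_0009128 had 16 and 38 reads in the normal libraries. The last of these, hsa_circ_0005499, had 0 reads in either glucose-free library and 38 and 14 in the normal ones, the lowest ratio of normal replicate 2 to replicate 1 among the 87 (0.295 in CPM). For this circRNA the normal libraries differed more than 3-fold, so its normal level is poorly fixed.

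Above the shared minimum of 6 reads in both, agreement between the normal libraries was like that of other circRNAs. The CPM ratio of normal replicate 2 to normal replicate 1 had a median of 1.07 over the 87 (range 0.295 to 2.40), against 0.960 over the 2932 others. The ratio lay between 0.5 and 2 for 80 of the 87 (92.0%) and for 2632 of the 2932 others (89.8%). Among the 8 with at least 20 reads in both normal libraries it ran from 0.614 for hsa_circ_0020816 to 1.40 for hsa_circ_0001095. That limit narrows the range, since it leaves out hsa_circ_0005499 (0.295) and hsa_circ_0009128 (1.90), which are among the 10 most abundant. By this measure, which was not tested, the ratios of the 87 circRNAs spread about as much as those of the others. The minimum itself removes many circRNAs that differ between the normal libraries, so repeatability cannot be read from it. With the minimum asked of normal replicate 2 only, 383 circBase circRNAs were at 0 in the glucose-free pair, and 165 with replicate 1 only. The 87 also had fewer normal reads, with a median sum of 18 against 32.

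The edge of the choice cuts through a continuum. Of the 87, 39 had exactly 6 reads in a normal library, and 6 of those had 6 reads in both. Just inside, hsa_circ_0002701 and hsa_circ_0077223 had 0 reads in either glucose-free library, against 6 and 18 in normal replicates 1 and 2. Just outside, hsa_circ_0060664 had 5 and 18 normal reads. It was one of 67 circBase circRNAs at 0 in both glucose-free libraries whose lower normal library had 5 reads. On the other side, 41 circBase circRNAs with at least 6 reads in both normal libraries had 2 reads in 1 glucose-free library and 0 in the other. An example is hsa_circ_0006062, with 0 and 2 reads in the glucose-free libraries, against 21 and 15 in normal replicates 1 and 2.

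Few of the 87 would have been well covered in the glucose-free libraries even at an unchanged level. At the pooled normal rate, glucose-free replicate 1 would hold 4.11 to 121 reads of each, with a median of 6.16, and glucose-free replicate 2 would hold 2.36 to 69.4, with a median of 3.54. For 66 of the 87 the figure in glucose-free replicate 2 was under 5 reads, and for 35 it was under 3, next to the smallest listed value of 2. At least 10 reads in both glucose-free libraries would be reached by 10 of the 87, the same 10 that are described above by name. The part of depth in these zeros was not tested. Of 3019 circBase circRNAs with at least 6 reads in both normal libraries, 375 were at 0 in glucose-free replicate 1. The count was also 375 in glucose-free replicate 2, the shallower library.

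**Figure D2:**
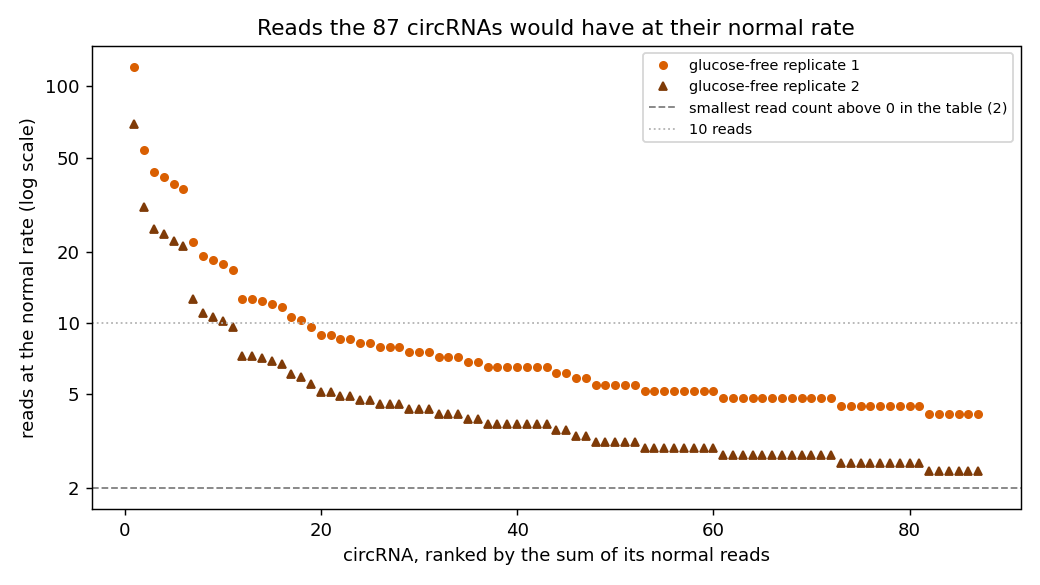
Reads that each of the 87 circRNAs would have in glucose-free replicate 1 (circles) and replicate 2 (triangles) at its pooled normal rate (vertical axis, logarithmic), ranked by the sum of normal reads. The dashed line is the smallest value above 0 in the table, 2 reads, and the dotted line is 10 reads, which 10 of the 87 pass in both libraries.

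The share of circRNAs at 0 in both glucose-free libraries was highest where normal reads were fewest. Of 3019 circBase circRNAs with at least 6 reads in both normal libraries, the 87 are 2.88%. A zero in glucose-free replicate 1 alone was found in 288, in glucose-free replicate 2 alone in another 288, and 2356 had reads in both. With 12 to 19 normal reads in all, 51 of 677 (7.53%) had 0 reads in either glucose-free library. The share was 1.88% (26 of 1386) with 20 to 49 reads, 0.772% (4 of 518) with 50 to 99 reads and 1.37% (6 of 438) with 100 or more. Zeros in glucose-free replicate 1 alone made up 14.6%, 7.79%, 7.92% and 9.13% over the same 4 ranges, from few to many normal reads. Zeros in glucose-free replicate 2 alone made up 18.5%, 9.38%, 2.32% and 4.79%.

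**Figure D3:**
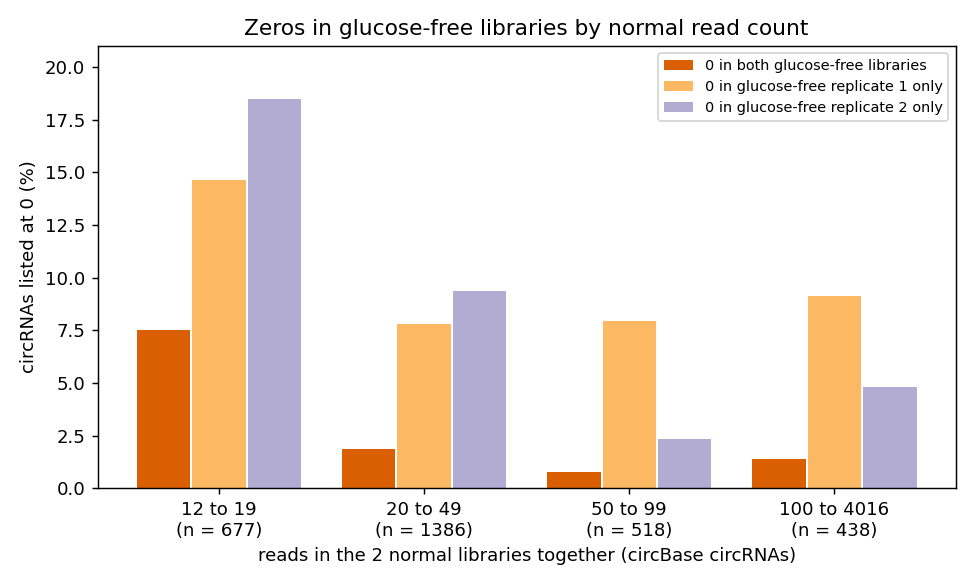
Share of circBase circRNAs with at least 6 reads in both normal libraries (vertical axis, percent) that were at 0 in both glucose-free libraries, in replicate 1 only or in replicate 2 only, by the reads in both normal libraries together (horizontal axis, with the number of circRNAs). The share at 0 in both is 7.53% at 12 to 19 reads and 1.37% at 100 reads or more.

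Well covered circRNAs that were at 0 in one glucose-free library were mostly read in the other, at close to the normal rate. Among circRNAs that would have at least 10 reads in glucose-free replicate 2, 10 of the 90 at 0 in glucose-free replicate 1 (11.1%) were also at 0 in replicate 2, against 32 of the 845 with reads in replicate 1 (3.79%). The other 80 of the 90 had, in glucose-free replicate 2, a median of 1.09 times the reads of the normal rate, and the 813 read in both had 1.03 times. In the other direction, among circRNAs that would have at least 10 reads in glucose-free replicate 1, 18 of the 87 at 0 in replicate 2 (20.7%; a count unrelated to the 87 members) were also at 0 in replicate 1, against 119 of the 1511 with reads in replicate 2 (7.88%). The other 69 were read in replicate 1 at a median of 0.888 times the normal rate, and the 1392 read in both at 0.950 times. The 10 at 0 in both, with at least 10 reads due in each, are the 10 most abundant of the 87. These figures share the normal libraries as their base, and they describe the libraries without a test.

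The mirror pattern was rare. At least 6 reads in both glucose-free libraries with 0 in both normal libraries was found in 4 of 1632 circBase circRNAs over that minimum (0.245%), against 87 of 3019 (2.88%) for zeros in the glucose-free pair. Over the whole table the mirror was met by 0.0343%, against 1.08%. The 4 were hsa_circ_0074828 with 17 and 12 reads in the glucose-free libraries, hsa_circ_0003655 with 16 and 8, hsa_circ_0008523 with 12 and 9, and hsa_circ_0058876 with 7 and 7. Each was at 0 in both normal libraries. None reached 20 reads in any library, whereas 8 of the 87 had at least 20 in both normal ones. These reads are not scaled to depth, and the glucose-free libraries were shallower. With a minimum of 102 CPM in both libraries with reads, 3 of the 4 and 12 of the 87 remained.

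Zeros shared by a glucose-free and a normal library reached a similar count in one combination. Libraries glucose-free replicate 2 and normal replicate 1 were both at 0 for 76 of 2512 circRNAs (3.03%) with at least 6 reads in both others. Among these, hsa_circ_0006602 had 55 and 0 reads in the glucose-free libraries, replicate 1 first, and 0 and 80 in the normal ones. Similarly, hsa_circ_0005974 had 54 and 0 reads in the glucose-free libraries and 0 and 65 in the normal ones. These are the closest libraries by chi-square, and they belong to different treatment groups. Applied to the other 3 libraries, the rule for the glucose-free pair selected 375 circRNAs without glucose-free replicate 2 and 383 without normal replicate 1, against 87 with all 4.

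The remaining combinations gave lower counts. Zeros in glucose-free replicate 1 with normal replicate 2 numbered 11 of 1903 (0.578%), led by hsa_circ_0000339 with 0 and 34 reads in the glucose-free and 82 and 0 in the normal libraries. Both replicates 2 were at 0 for 11 of 2406 (0.457%), led by hsa_circ_0057163 with 17 and 0 reads in the glucose-free and 36 and 0 in the normal libraries. Both replicates 1 were at 0 for 4 of 1820 (0.220%), led by hsa_circ_0008549 with 0 and 21 reads in the glucose-free and 0 and 56 in the normal libraries. In each of these circRNAs, both groups had one replicate at 0 and one with reads.

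With the same CPM minimum for every pair of libraries with reads, the order of the counts changed. The pair at 0 kept its own depth, so a 0 remained easier to reach in the shallower libraries. A minimum of 102 CPM, the level that 6 reads have in the shallowest library, left 12 of 1304 circRNAs (0.920%) at 0 in both glucose-free libraries. It left 32 of 1235 (2.59%) at 0 in glucose-free replicate 2 and normal replicate 1, and 3 of 1227 (0.244%) at 0 in both normal libraries. The glucose-free pair and its mirror thus stood at 12 against 3 at that minimum, and at 87 against 4 at 6 reads. Besides 9 of the 10 most abundant, the 12 include hsa_circ_0036610 (0 reads in both glucose-free, 15 and 34 in the normal libraries), hsa_circ_0006471 (0 reads in both, against 14 and 21) and hsa_circ_0000664 (0 reads in both, against 14 and 20). The one of the 10 that dropped out is hsa_circ_0005499, whose 14 reads in normal replicate 2 are 84.3 CPM.

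**Figure D4:**
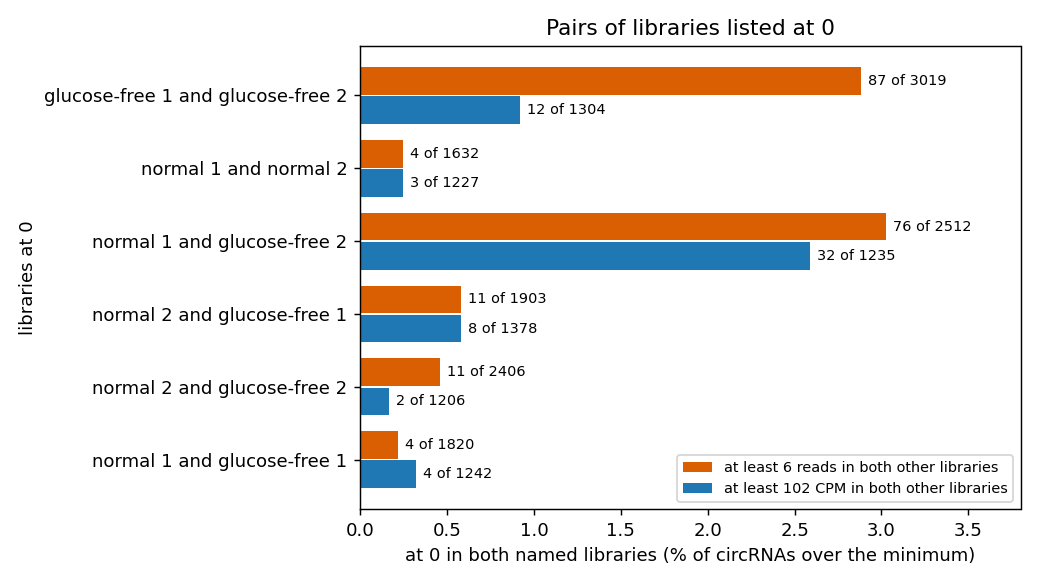
Share of circBase circRNAs at 0 in both libraries of each of the 6 pairs (vertical axis), as a percentage of those over the minimum in both other libraries (horizontal axis), with a minimum of 6 reads (upper bar of each pair) or of 102 CPM (lower bar), and the numbers beside each bar. At 102 CPM the glucose-free pair has 12 of 1304 and the pair of normal replicate 1 and glucose-free replicate 2 has 32 of 1235.

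CircRNAs without a circBase identifier, read in the same 4 libraries and so no independent check, had counts of the same kind. Of 740 with at least 6 reads in both normal libraries, 39 (5.27%) were at 0 in the glucose-free pair, and of 271 with at least 6 reads in both glucose-free libraries, 0 were at 0 in both normal ones. Glucose-free replicate 2 and normal replicate 1 were both at 0 for 22 of 549 (4.01%). With a minimum of 10 reads the order changed, to 3 of 327 (0.917%) for the glucose-free pair and 7 of 218 (3.21%) for the latter pair. At 102 CPM, 1 of 153, 0 of 155 and 1 of 144 were left, too few to rank the patterns.

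No circRNA was called in the test of glucose-free against normal cells. All 87 lay lower without glucose in both libraries, as the choice required, and so did 21.3% of the 3767 circRNAs with at least 6 reads in both normal libraries. Of the 87, 15 passed the filter on low counts, and 0 of these 15 were past an adjusted p of 0.05 in edgeR's quasi-likelihood test, where 0 of 2803 circRNAs were (0%). Unadjusted, all 15 that passed were under 0.05, beside 36 circRNAs (1.28%) in the lower direction among all tested; the choice of the 87 used this contrast, and nothing is read from it. DESeq2, which tested all 87, called 0 as well, with 31 of the 87 at an unadjusted p under 0.05, beside 42 of all 10989 circRNAs it tested (0.382%) in the lower direction.

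The calls depended on which glucose-free library was in the fit. Without glucose-free replicate 2, 6 of the 39 tested members of the set were past the adjusted threshold, namely the 6 most abundant, among 70 lower calls in all (1.78% of 3938). Without glucose-free replicate 1, there were 3 of 39, namely hsa_circ_0002484, hsa_circ_0001064 and hsa_circ_0001543, among 24 lower calls in all (0.629% of 3818). The members were chosen on this contrast and passed the filter only through their normal reads, so their direction is fixed by the choice and these calls are a description that supports nothing. In these fits the lone glucose-free library is assumed to vary as the normal libraries do. All 70 and all 24 of these lower calls were at 0 in the one remaining glucose-free library. Without normal replicate 1, 0 of 22 tested members were called, and without normal replicate 2, 0 of 13. In bulk RNA, fewer cells holding a circRNA and less of it per cell cannot be told apart.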

How the data were processed

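Back-splice reads were counted in 4 HepG2 libraries. The authors deposited 1 table with whole read counts per circRNA, not normalized, and CPM values under a header that says tpm; each CPM is the read count over the library's column sum, scaled to 1000000, within 4.22e-06, with no length term. The submitters' processing notes name hg19 and DESeq2, with no role or version. For the aligner, circRNA caller and filters, nothing is given in the sources used here. The column totals were 58776 to 166071 reads, and with 2 libraries per group a p-value reflects only their spread, possibly technical.

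The members, the patterns and the lists were chosen with earlier results of these data known. The named circRNAs were the 10 members with most normal reads, up to 3 at each edge of the rule, the extremes of the normal ratio, up to 5 of the mirror pattern and 2 of each other pair; not every one is printed, and members of the 102 CPM set and those called in other fits were named after their values were seen. Reads at the normal rate are the pooled normal share times the library total. Tests used edgeR 4.0.16 in R 4.3.3 (quasi-likelihood, filterByExpr, TMM, library totals of the circRNAs kept, Benjamini-Hochberg over all tested); DESeq2 1.42.0 was an alternative. The edgeR fit was tested on simulated data with much less spread between libraries than here, where the common dispersion was 0.336. That simulation does not show what the fit can detect in these data. Exact permutation of 2 against 2 libraries cannot go below p = 0.333 and was not used.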

Additional observations from a re-analysis of the deposited data

How the results depend on the processing

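The counts of most patterns moved with the minimum of reads. For zeros in the glucose-free pair it was 271 at 4 reads, 23 at 10 reads, 12 at 102 CPM and 136 with up to 2 reads allowed in each glucose-free library, against 87. For the mirror it was 7 at 4 reads, 1 at 10 reads and 3 at 102 CPM, against 4. For glucose-free replicate 2 with normal replicate 1 it was 155, 39 and 32 at 4 reads, 10 reads and 102 CPM, against 76. For glucose-free replicate 1 with normal replicate 2 it was 32, 7 and 8 at 4 reads, 10 reads and 102 CPM, and for both replicates 2 it was 38, 3 and 2 at 4 reads, 10 reads and 102 CPM, against 11 for each pair. For both replicates 1 it was 7 at 4 reads, and it stayed at 4 at 10 reads and at 102 CPM. At 10 reads as at 102 CPM, glucose-free replicate 2 with normal replicate 1 had the highest count of the 6 pairs. With 1 library left out the rule reads 3 libraries: zeros in what remained of the glucose-free pair then numbered 165 (without normal replicate 2) to 383 (without normal replicate 1), with 375 without glucose-free replicate 1 and also 375 without replicate 2, and the mirror numbered 5 (without glucose-free replicate 1) to 81 (without normal replicate 1).

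The count of 0 called circRNAs, and of 0 called among the 87, was also found with DESeq2, RLE size factors, no filter and the replicate block, and with the crossed pairing, an alternative added after seeing the data. The smallest adjusted p was 0.0567 in DESeq2, close to the threshold. It was 0.336 in edgeR without the filter and 0.964 in the main edgeR fit. Leaving out 1 library gave 0 to 71 calls in all and 0 to 6 among the 87. The replicate numbers are not stated to pair the libraries, and the deviations of libraries of the same number from their groups' means had a correlation of -0.202 across 2803 circRNAs; with the replicate block, 39 circRNAs were at an unadjusted p under 0.05, and with the crossed pairing 26, against 65. Depth limits what a 0 can show. At the normal rate, 77 of the 87 would have fewer than 10 reads in glucose-free replicate 2, and 69 in replicate 1. Zeros also occurred at high coverage. Of 438 circBase circRNAs with 100 or more normal reads, 46 were at 0 in glucose-free replicate 1 and 27 in replicate 2. The part of depth was not tested.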
